A study of Rattus norvegicus with 6 samples.

Results

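The core clock of rat liver was followed through 10 genes: the activators Bmal1 (Arntl in older annotation), Clock and Npas2, the repressors Cry1, Cry2, Per1, Per2 and Per3, and the kinases Csnk1d and Csnk1e. They were chosen by gene symbol from the 15284 symbols that the array probes could be given, and every probe of each gene was taken. The 10 genes had 26 of the 61657 probes, and 25 of these were among the 37647 probes that passed the background filter and were tested. The animals were 6 male rats of the outbred Sprague-Dawley stock: 3 were dosed with tert-butyl alcohol (tBA), an industrial solvent, at 1000 mg/kg/day, and 3 with vehicle. All 6 animals were 5 weeks old at purchase, had a basal diet and tap water, and lived under 12 h of light and 12 h of dark. Total liver RNA of each animal was labelled with the dye Cy3 and hybridised to 1 one-colour Agilent array. The vehicle is Purified Water in the sample labels and corn oil in the treatment protocol, and the duration is 28 days in the series design and 9 weeks in the protocol. The hour at which the livers were taken is not given in the sources used here, so no value below can be placed within the daily cycle.

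In the mammalian clock, BMAL1 pairs with CLOCK or its relative NPAS2, binds E-box sequences in DNA and switches on the Per and Cry genes among many others. The PER and CRY proteins gather, enter the nucleus and hold back the same activators, while casein kinase 1 delta and epsilon, the products of Csnk1d and Csnk1e, phosphorylate PER proteins and set how long they last. In a second loop the nuclear receptors REV-ERB and ROR compete at RORE sequences, through which Bmal1, Npas2 and Cry1 are repressed or activated, and in rodent liver most of these transcripts go up and down over each day.

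Promoter windows of the members were searched for the sequences through which these loops act. RefSeq windows on the GRCr8 assembly, from 250 bases before to 50 bases after the transcript start, were matched for 8 of the 10 members, with 9 windows because Clock had more than 1. Cry1 and Csnk1d had no entry. The windows of Bmal1 and Per2 are shown because the first belongs to the activator with the largest difference below and the second held more of the searched motifs than any other member's window. Capitals mark the motifs found: in Bmal1 the RORE core TAGGTCA, and in Per2 first the D-box TTATGTAA and then the E'-box CACGTT. The Bmal1 window is chr1:176766078-176766377 on the plus strand, and the Per2 window is chr9:99496944-99497243 on the minus strand.
Bmal1: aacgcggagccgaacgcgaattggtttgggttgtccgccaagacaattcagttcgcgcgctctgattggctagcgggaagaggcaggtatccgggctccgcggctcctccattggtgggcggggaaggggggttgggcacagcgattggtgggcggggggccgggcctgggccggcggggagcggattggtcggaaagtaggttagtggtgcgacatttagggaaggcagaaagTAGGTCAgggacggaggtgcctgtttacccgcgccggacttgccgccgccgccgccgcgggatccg
Per2: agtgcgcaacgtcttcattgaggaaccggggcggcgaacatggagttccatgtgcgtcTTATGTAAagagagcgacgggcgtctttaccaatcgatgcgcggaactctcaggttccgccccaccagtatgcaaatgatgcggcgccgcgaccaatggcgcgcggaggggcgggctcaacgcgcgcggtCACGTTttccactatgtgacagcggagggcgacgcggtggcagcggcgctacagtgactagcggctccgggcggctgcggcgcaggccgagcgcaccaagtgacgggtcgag
The RORE core of Bmal1 began 16 bases before the start. Those of Per2 began 192 and 62 bases before it. Cry2, the other member with a match, had an E'-box on the opposite strand 212 bases before its start, at chr3:98860388-98860687 on the minus strand. Searched on both strands, TAGGTCA was in 2.63% of 33469 rat promoter windows, CACGTT in 4.83% and TTATGTAA in 0.893%. The canonical E-box CACGTG (6.42% of all windows), the other RORE core TGGGTCA (4.09%), the other D-box form TTACGTAA (0.12%) and the cyclic AMP response element TGACGTCA (1.83%) were in 0 of the 9 windows. A match describes letters in a window of 300 bases and does not show a binding site. An absence covers only the window searched, and whether each window holds the main promoter of its gene was not tested.

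Levels are given as log2 of the processed signal minus the 75th percentile of the same array, so that 0 is the 75th percentile of all probes. Such a level compares arrays for 1 probe and does not compare different probes or genes. On each array 61.5% to 66.9% of probes were well above background and 0 were saturated. The arrays lay on 2 slides: tBA replicates 2 and 3 were alone on slide 2, and tBA replicate 1 was on slide 1 with all 3 vehicle arrays. All 8 hepatocyte markers were well above background on every array, with a summed level of 11.92 to 12.01 in tBA livers and 11.90 to 12.02 in vehicle livers on the log2 scale. Of the markers of other cells, the 3 of 5 endothelial markers with a probe had a summed log2 level of 5.65 to 5.72 in tBA livers and 5.42 to 5.59 in vehicle livers. The 5 macrophage markers summed to 6.47 to 6.56 in tBA livers and 6.46 to 6.76 in vehicle livers. Taken singly, 0 of the 5 had a higher mean in tBA livers, with a median difference of -0.21. The same held for 0 of 5 stellate, 0 of 3 T and NK cell and 0 of 2 B cell markers tested, and for 1 of 3 bile duct markers. Higher means were seen for 3 of 3 endothelial and 7 of 8 hepatocyte markers, and for 5609 of all 11094 genes tested. The part of these cells in the clock values was not tested, and in whole liver fewer cells of a type and less RNA per cell cannot be told apart.

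The comparison of tBA with vehicle asked whether the clock genes differed in level after repeated dosing. The activators Bmal1 and Npas2 had the higher signal in tBA livers by more than 2-fold at their brightest probes, and Clock by less. Cry1 was also higher by more than 2-fold on average, with overlapping groups. Per2 was lower at its single probe, with groups that nearly touched, and Cry2 was lower at its brightest probe but not at its other. Per3 was lower at its dimmer probes, some of them not well above background in any tBA liver. Per1, Csnk1d and Csnk1e differed at their brightest probes by less than the spread within groups. None of the 25 tested member probes passed an adjusted p of 0.05 in limma, with percent called 0.114 over all probes tested, so these are descriptions of size and order and not called changes. A gene is given by its brightest tested probe, and its other probes follow.

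Bmal1, the partner that CLOCK and NPAS2 share, had log2 levels of 1.60, 2.23 and 1.95 on tBA replicates 1 to 3, against 0.92, -0.14 and 0.56 on vehicle replicates 1 to 3. Every tBA array stood above every vehicle array, by a gap of 0.68 between the nearest 2. The difference was 1.48 (SE 0.30, 95% interval 0.75 to 2.21), or 2.79-fold, with an unadjusted p of 0.00233 and an adjusted p of 0.18 in limma. Its other probe, A_64_P117345, had levels of -0.78, 0.05 and -0.21 on tBA arrays and -1.32, -2.24 and -1.58 on vehicle arrays. Again the groups did not overlap, and the difference of 1.40 (SE 0.31, limma adjusted p = 0.189) was close to that of the brighter probe. Both probes put the 6 arrays in the same order within each group, with tBA replicate 2 highest and vehicle replicate 2 lowest.

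Npas2, which can stand in for CLOCK as the partner of BMAL1, had log2 levels of 0.31, 0.98 and 0.82 on tBA arrays against -0.47, -0.78 and -0.71 on vehicle arrays at its brightest probe, A_44_P945456. The groups stood apart by 0.78, a wider gap than the whole spread within either. The difference was 1.36 (SE 0.19, 95% interval 0.89 to 1.83), or 2.56-fold, with an unadjusted p of 0.00035 and an adjusted p of 0.105 in limma. Its other probes gave smaller differences. Probe A_44_P405793 had levels of -4.03, -2.85 and -3.42 on tBA arrays and -4.75, -4.55 and -4.01 on vehicle arrays, a difference of 1.00 (SE 0.33, limma adjusted p = 0.268), and only tBA replicate 1 reached into the vehicle values. Probe A_64_P024222 had levels of -1.90, -1.32 and -1.65 on tBA arrays and -1.57, -2.06 and -1.88 on vehicle arrays, a difference of 0.21 (SE 0.19, limma adjusted p = 0.598) with overlapping groups. The mean over the 3 probes was 0.86, and the size for Npas2 therefore depended on the probe by more than 1.5 times.

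Clock, the DNA-binding partner of BMAL1 with acetyltransferase activity, had log2 levels of -1.06, -1.01 and -1.04 on tBA arrays against -1.62, -1.62 and -1.38 on vehicle arrays at its brightest probe. The tBA arrays were nearly identical, and all lay above the vehicle arrays. The difference was 0.50 (SE 0.10, 95% interval 0.26 to 0.74), or 1.42-fold, with an unadjusted p of 0.0021 and an adjusted p of 0.177 in limma. Probe A_43_P15473 also had groups that stood apart, at -2.91, -3.30 and -3.00 on tBA arrays and -3.66, -3.79 and -3.42 on vehicle arrays, a difference of 0.55 (SE 0.15, limma adjusted p = 0.223). Probe A_64_P075337 overlapped between groups, with -2.72, -3.05 and -2.89 on tBA arrays and -2.85, -3.40 and -3.08 on vehicle arrays, a difference of 0.23 (SE 0.17, limma adjusted p = 0.518). All 3 Clock probes thus had the same sign, at sizes under those of Bmal1.

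**Figure D1:**
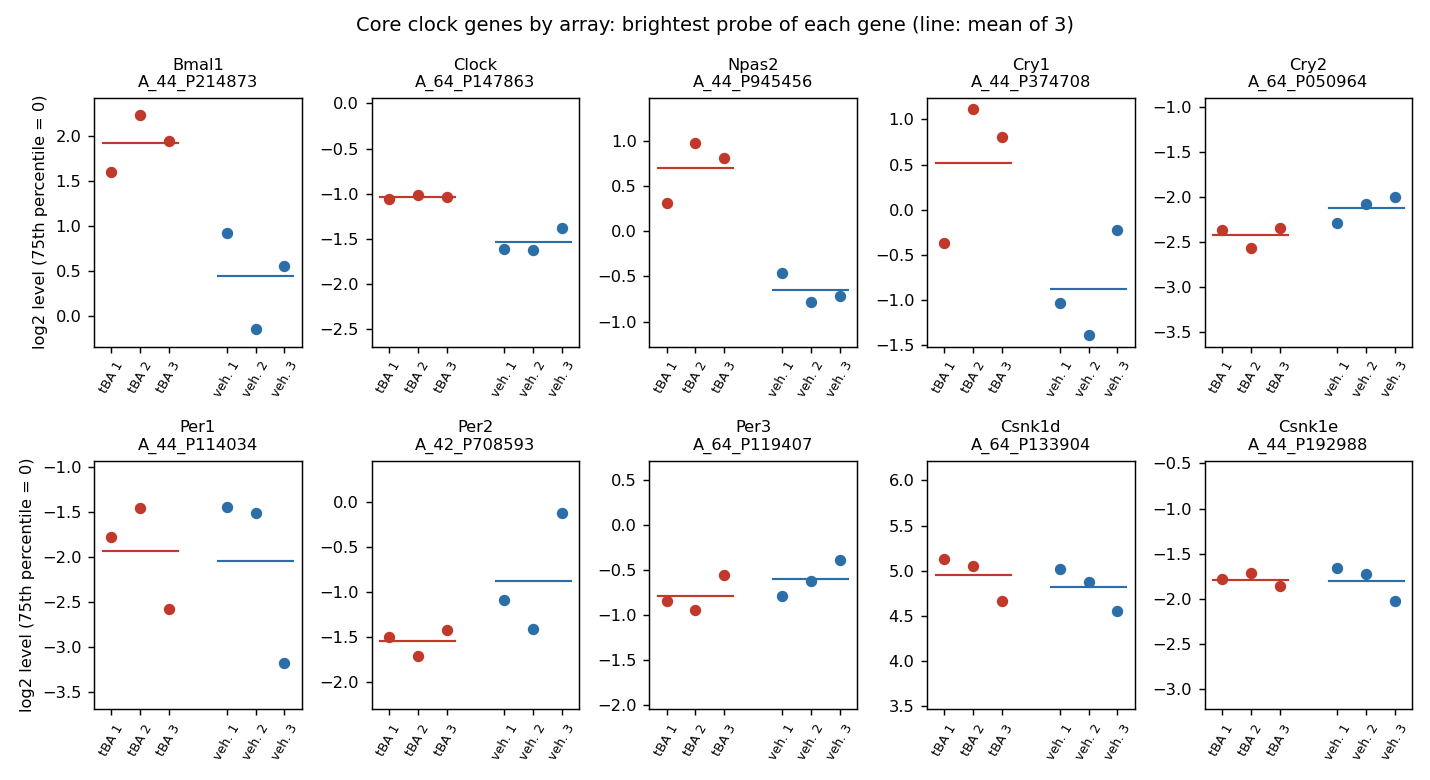
Log2 level on each array for the brightest tested probe of each of the 10 clock genes, with tBA arrays in red on the left, vehicle arrays in blue on the right, and a line at each mean of 3; all panels span the same number of log2 units. Bmal1, Npas2 and Clock have every red point above every blue point, Cry1 has tBA replicate 1 below vehicle replicate 3, and Per1 has its lowest point in each group at replicate 3.

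Cry1, a repressor that holds back CLOCK and BMAL1 late in the cycle, had 1 probe, with log2 levels of -0.37, 1.11 and 0.81 on tBA arrays against -1.03, -1.39 and -0.22 on vehicle arrays. The groups overlapped because tBA replicate 1 lay just under vehicle replicate 3. The difference was 1.40 (SE 0.46, 95% interval 0.28 to 2.52), or 2.64-fold, with an unadjusted p of 0.0221 and an adjusted p of 0.268 in limma. On slide 1 alone, tBA replicate 1 against the 3 vehicle arrays, it was 0.51. Within the tBA group, replicate 1 was the lowest array for Cry1, for both probes of Bmal1, for all 3 of Npas2 and for the brightest of Clock, but the highest for the other 2 Clock probes. It was also the one that shared a slide with the vehicle arrays. Slide 1 alone gave 1.16 for Bmal1, 0.96 for Npas2 and 0.48 for Clock at their brightest probes. The other Clock probes A_43_P15473 and A_64_P075337 were at 0.71 and 0.39 there, and the other Bmal1 probe at 0.93. Npas2 probe A_44_P405793 was at 0.41 and A_64_P024222 at -0.06 on slide 1 alone.

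Cry2, the second cryptochrome, was lower in tBA livers at its brightest probe, with log2 levels of -2.37, -2.56 and -2.34 on tBA arrays against -2.29, -2.08 and -2.00 on vehicle arrays. The groups stood apart by 0.05, and the difference was -0.30 (SE 0.12, 95% interval -0.59 to -0.02), with an unadjusted p of 0.0402 and an adjusted p of 0.301 in limma. Its other probe, A_43_P13175, overlapped fully, with -3.65, -3.45 and -3.14 on tBA arrays and -3.73, -3.66 and -2.94 on vehicle arrays, a difference of 0.03 (SE 0.25, limma adjusted p = 0.957). The 2 probes of Cry2 thus gave no common direction, and the brighter was at -0.12 after normexp background correction.

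The Per genes encode the period proteins, and Per1 and Per2 are also induced directly by light, hormone and feeding signals. Per2 had 1 probe, with log2 levels of -1.50, -1.72 and -1.42 on tBA arrays against -1.09, -1.42 and -0.13 on vehicle arrays. The groups touched, with a gap of 0.0062 between tBA replicate 3 and vehicle replicate 2, and vehicle replicate 3 stood far above all others. The difference was -0.67 (SE 0.33, 95% interval -1.46 to 0.12), with an adjusted p of 0.367 in limma, and it was -0.29 without vehicle replicate 3.

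Per1 had log2 levels of -1.78, -1.46 and -2.57 on tBA arrays against -1.45, -1.51 and -3.17 on vehicle arrays at its brightest probe. Replicate 3 was the lowest array of both groups, and the spread within groups was many times the difference of 0.10 (SE 0.53, 95% interval -1.18 to 1.39, limma adjusted p = 0.938). The other probe, A_64_P300243, had -3.91, -3.79 and -4.87 on tBA arrays and -4.19, -4.15 and -3.83 on vehicle arrays, a difference of -0.13 (SE 0.30, limma adjusted p = 0.849). Both probes had tBA replicate 3 lowest in its group, but they placed vehicle replicate 3 at opposite ends. The interval of the brighter probe leaves room for differences of more than 2-fold in either direction.

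Per3, the period gene that the clock can most easily do without in mice, had 5 probes, and they differed more among themselves than those of any other member. The brightest, A_64_P119407, had log2 levels of -0.85, -0.95 and -0.56 on tBA arrays against -0.78, -0.62 and -0.38 on vehicle arrays, a difference of -0.19 (SE 0.15, limma adjusted p = 0.557) with overlapping groups. Probe A_64_P119405 had -3.75, -3.86 and -3.95 on tBA arrays and -3.58, -3.09 and -3.22 on vehicle arrays, and these groups stood apart at a difference of -0.55 (SE 0.15, limma adjusted p = 0.222), which was -0.17 after normexp background correction.

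The remaining Per3 probes were near background in tBA livers. Probe A_64_P127337 had measured levels of -6.19, -7.04 and -6.82 on tBA arrays, none well above background, against -4.72, -4.09 and -3.85 on vehicle arrays, all well above background. Against the lowest signal well above background on each tBA array, its mean level on vehicle arrays was 2.03-fold higher. Probe A_44_P196198 had -5.17, -5.97 and -7.29 on tBA arrays, none well above background, against -3.93, -3.31 and -3.88 on vehicle arrays, all well above it. Its mean level on vehicle arrays was 2.91-fold higher than the same reference level. That reference is not a strict limit, because a spot can lie above it without being called well above background. Both probes entered the test only through the vehicle arrays, and their p-values are left out because the tBA signals were not well above background. After normexp background correction the differences were -0.40 and -0.51, smaller in size than these folds. Probe A_43_P16143 was well above background on 0 of 3 tBA arrays and 1 of 3 vehicle arrays and was not tested; its measured levels were -6.19, -7.05 and -6.97 on tBA arrays and -5.55, -5.27 and -5.16 on vehicle arrays. The 5 probes had lower means in tBA livers, at sizes that differed widely, but not all of them bear on direction. A_64_P127337 and A_44_P196198 passed the filter only through the vehicle arrays, and A_43_P16143 did not pass it. Only A_64_P119407, at -0.19 with overlapping groups, and A_64_P119405, at -0.55, were well above background on every array. The mean over the 4 tested probes was -1.41 with A_64_P127337 and A_44_P196198 at their measured levels. With their tBA levels put at the reference it was -0.83, against -0.19 at the brightest.

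**Figure D2:**
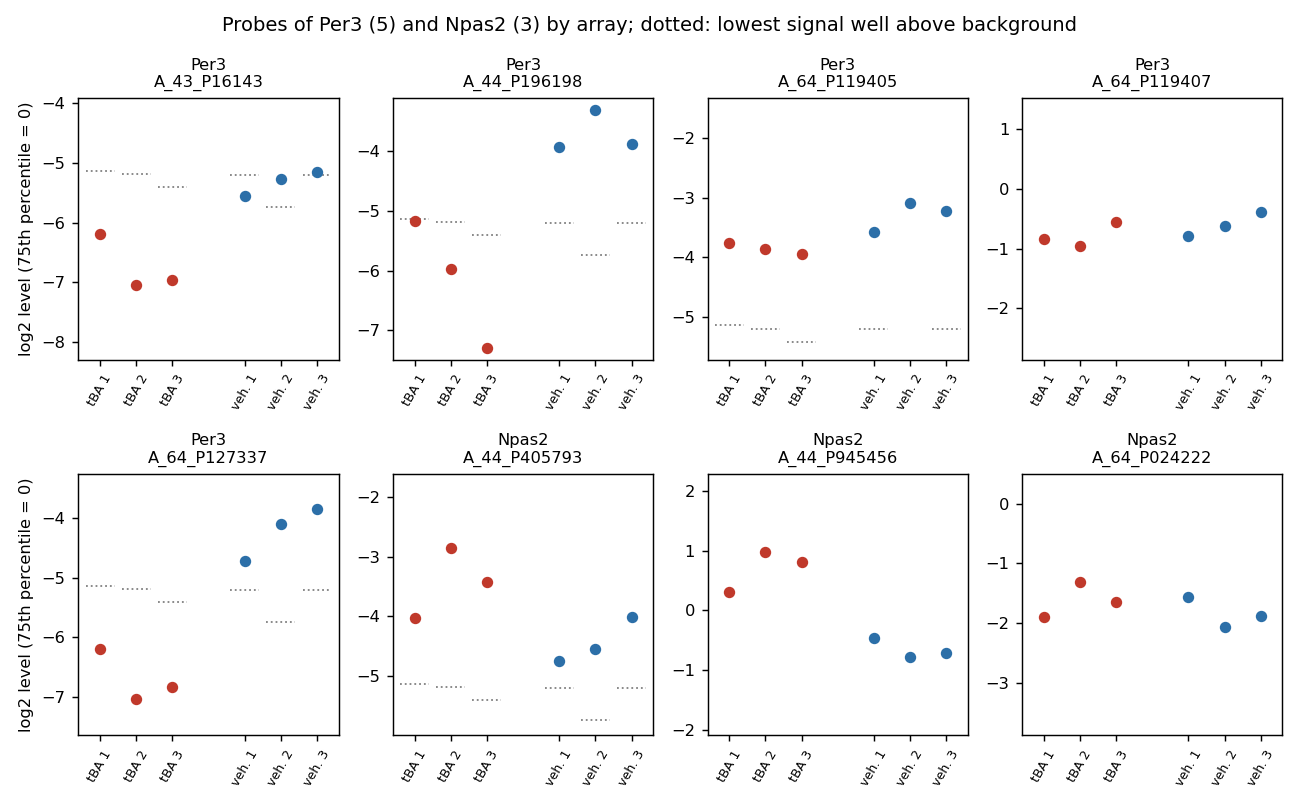
Log2 level on each array for the 5 probes of Per3 and the 3 of Npas2, with tBA arrays in red on the left and vehicle arrays in blue on the right; dotted marks give, where they fall within a panel, the lowest level at which any probe of that array was well above background. At 3 Per3 probes the red points lie under the dotted marks, while at A_64_P119407 red and blue points overlap; Npas2 separates the groups at A_44_P945456 only.

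The kinase genes differed little. Csnk1d had log2 levels of 5.13, 5.05 and 4.66 on tBA arrays against 5.02, 4.88 and 4.56 on vehicle arrays at its brightest probe, with replicate 3 lowest in both groups. The difference was 0.13 (SE 0.18, 95% interval -0.30 to 0.56, limma adjusted p = 0.731), and its other 2 probes were at 0.02 and -0.01. Csnk1e had -1.78, -1.72 and -1.86 on tBA arrays against -1.66, -1.72 and -2.03 on vehicle arrays at its brightest probe, a difference of 0.02 (SE 0.12, 95% interval -0.28 to 0.32, limma adjusted p = 0.954). Of its other 3 probes, A_64_P127944 was at 0.06, A_64_P040498 at -0.01 and A_42_P515454 at -0.25 (SE 0.12, limma adjusted p = 0.379). Only A_42_P515454 had groups that did not overlap, and by 0.0017. At the brightest probes the intervals exclude a difference of 1 on the log2 scale for both kinase genes, which is tighter than for Per1 or Cry1.

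**Figure D3:**
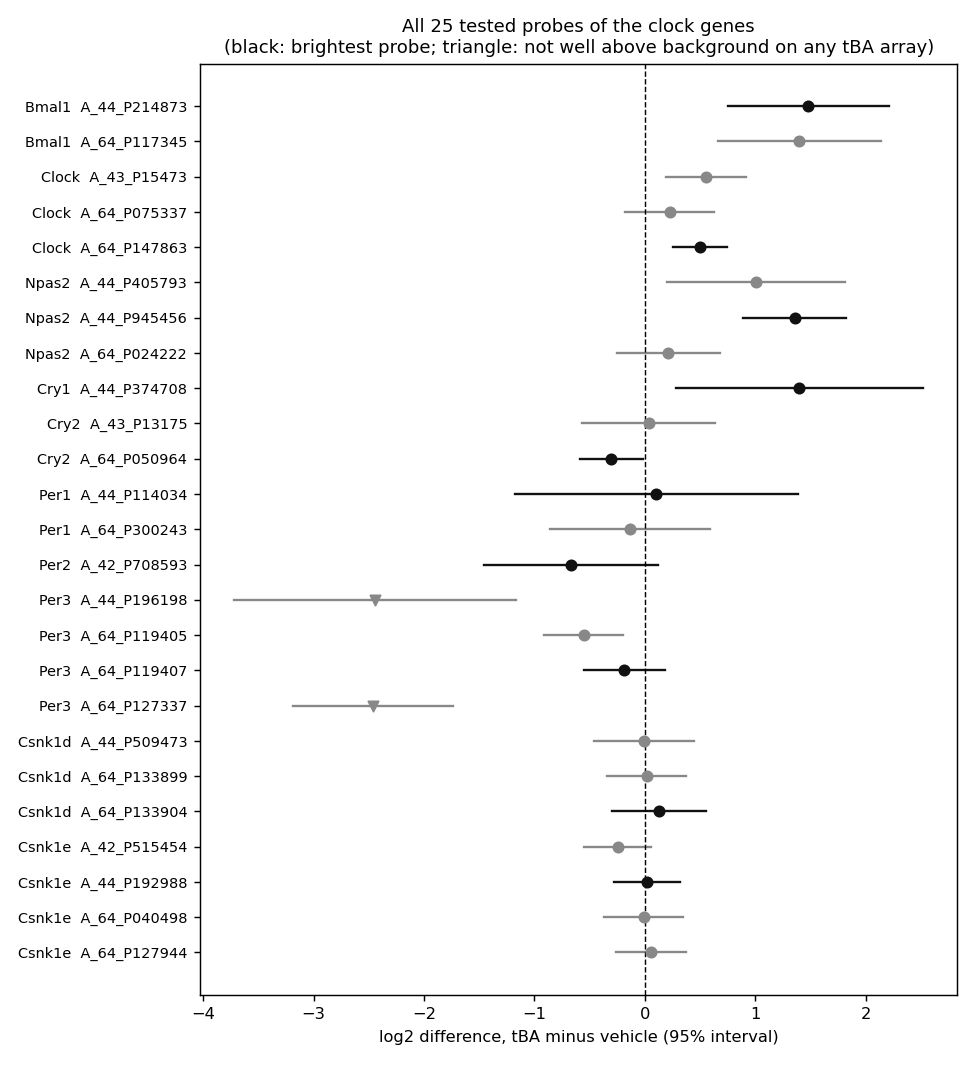
Difference in log2 level, tBA minus vehicle, with its 95% interval from limma, for the 25 tested probes of the clock genes; black marks the brightest probe of each gene, and triangles mark probes not well above background on any tBA array. The probes of Bmal1, Clock and Npas2 and the 1 probe of Cry1 lie to the right of 0. The 4 of Per3, triangles included, lie to the left, and those of Csnk1d and Csnk1e around 0. Intervals at the triangles are not to be read as tests, because those probes entered only through the vehicle arrays.

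The counts that follow leave out the 2 dim Per3 probes, which were tested only through the vehicle arrays, and cover the 23 member probes well above background on all 6 arrays. Of these, 9 had an unadjusted p under 0.05 in limma, 7 higher and 2 lower in tBA livers, where 15.1% of the 35660 such probes did, 8.84% higher and 6.3% lower. The groups did not overlap at 9 of the 23, 5 higher and 4 lower, where 24.5% of such probes did so, 14.8% higher and 9.69% lower. A difference of more than 1 in size on the log2 scale was seen at 5 of the 23, where 1.32% of such probes had one. These 5 came from Bmal1, Npas2 and Cry1, and Npas2 probe A_44_P405793 was just past the cut at 1.0039. On slide 1 alone the 5 were at 1.16 and 0.93 for Bmal1, 0.96 and 0.41 for Npas2 and 0.51 for Cry1. By brightest probe, 5 of the 10 genes had an unadjusted p under 0.05, where 15.1% of 11094 genes tested did. Bmal1, Clock, Npas2 and Cry1 were higher, as were 7.64% of all genes tested, and Cry2 was lower, as were 7.45%. Groups did not overlap for 5 of the 10, namely Bmal1, Clock, Npas2, Cry2 and Per2, where 24.2% of all genes tested did so, 12.8% higher and 11.3% lower. Only Bmal1, Npas2 and Cry1 were past 1 in size, where 1.93% of all genes tested were. The median size of the difference was 0.40 over the 10 genes and 0.16 over all genes tested, while the median of the signed differences was 0.12 over the 10 genes and 0.00 over all genes tested. Probes of 1 gene are not independent. For a single probe, an exact permutation test (two-sided) over the 6 arrays cannot go below p = 0.1, the value of each member probe whose groups did not overlap.

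The stabilising loop and its output factors were described beside the members. Of 12 listed genes 6 were tested, and 0 passed an adjusted p of 0.05 in limma, where 0.0451% of all genes tested did. Of the 6, 4 had an unadjusted p under 0.05 and all 4 were lower in tBA livers, where 15.1% of all genes tested had such a p and 7.45% were lower. These were Dbp, Bhlhe40, Tef and Nr1d2, and the median difference over the 6 was -0.82. Dbp, a D-box activator and direct target of CLOCK and BMAL1, had log2 levels of 3.21, 2.55 and 2.62 on tBA arrays against 4.60, 5.82 and 5.55 on vehicle arrays. The groups were far apart, at a difference of -2.53 (SE 0.35, limma adjusted p = 0.1). Within each group the array with the most Dbp was the one with the least Bmal1 at its brightest probe: tBA replicate 1 and vehicle replicate 2.

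Bhlhe40, an E-box repressor, had log2 levels of -1.65, -1.69 and -2.25 on tBA arrays against -0.48, -0.47 and -0.30 on vehicle arrays, a difference of -1.45 (SE 0.18, limma adjusted p = 0.0743). Among the members and the 18 other clock genes followed through the alternatives it alone passed under other settings, 2 of its 18. Its adjusted p in limma was 0.0371 after normexp background correction and 0.0445 with an intensity trend. It was 0.146 with probes above background on all 6 arrays, 0.178 without a filter and 0.236 with a replicate block. Tef, a relative of Dbp, was at -0.90 (SE 0.19, limma adjusted p = 0.186), and Nr1d2, which encodes REV-ERB beta, at -0.73 (SE 0.20, limma adjusted p = 0.233), both with groups that did not overlap. Nr1d1, which encodes REV-ERB alpha, had levels of 1.36, 0.40 and 0.57 on tBA arrays and 0.97, 1.72 and 1.76 on vehicle arrays. These groups overlapped through tBA replicate 1, with a difference of -0.71 (SE 0.32, limma adjusted p = 0.345). On slide 1 alone, Dbp was at -2.11, Bhlhe40 at -1.24, Tef at -0.57, Nr1d2 at -0.27 and Nr1d1 at -0.12. Nfil3, a repressor at D-boxes, was at 0.11 (SE 0.28, limma adjusted p = 0.87). Ciart was well above background on 1 tBA array and 2 vehicle arrays and was not tested, and the other listed genes were not analysed here.

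**Figure D4:**
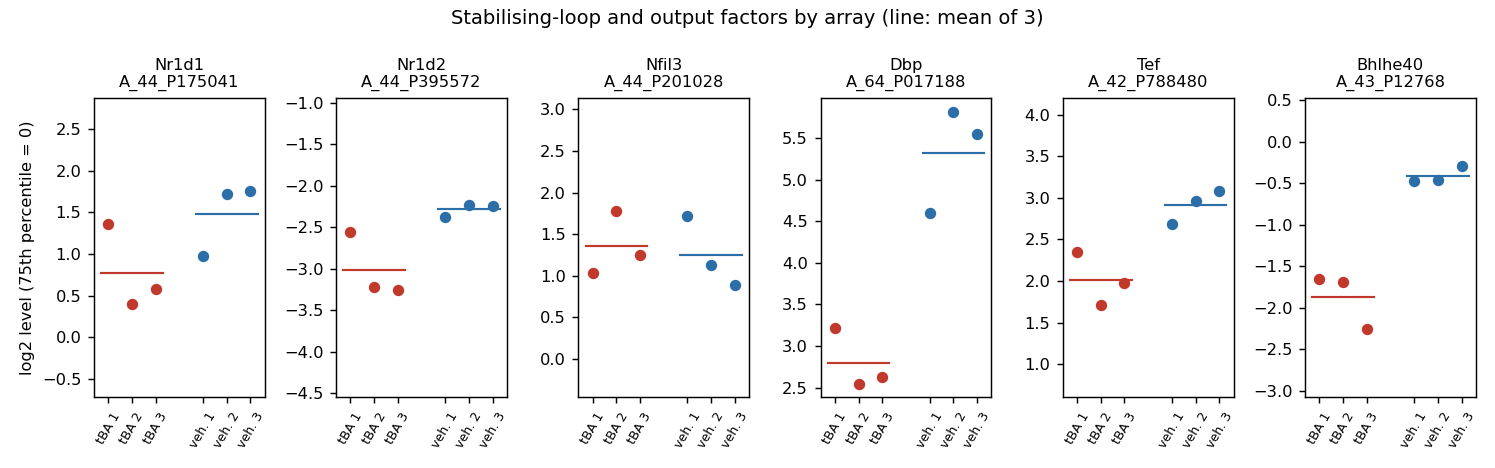
Log2 level on each array for the 6 tested genes of the stabilising loop and its outputs, with tBA arrays in red on the left, vehicle arrays in blue on the right, and a line at each mean of 3; panels span the same number of log2 units. Dbp, Bhlhe40, Tef and Nr1d2 have every red point under every blue point, while Nr1d1 and Nfil3 overlap.

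Genes that act on the PER and CRY proteins after translation differed little. Of 18 listed turnover factors, kinases and phosphatases, 15 were tested, with a median difference of 0.09. Of these, 0 passed the adjusted test in limma, where 0.0451% of all genes tested did. An unadjusted p under 0.05 was seen for 1 of the 15, where 15.1% of all genes tested had one. That gene was Ppp1cb, a catalytic subunit of protein phosphatase 1, at 0.27 (SE 0.11, limma adjusted p = 0.311). Btrc, which marks phosphorylated PER for breakdown, was at -0.21 (SE 0.13, limma adjusted p = 0.443), and Prkaa1, a catalytic subunit of AMP-activated protein kinase, at 0.49 (SE 0.23, limma adjusted p = 0.349). Skp1, a core part of the ubiquitin ligases that take up CRY and PER, was at 0.17 (SE 0.09, limma adjusted p = 0.383). These sizes were not steady: on slide 1 alone Ppp1cb was at 0.16, Prkaa1 at 0.14 and Skp1 at 0.07, without tBA replicate 2 Ppp1cb was at 0.18, and without vehicle replicate 2 Btrc was at -0.10.

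Of 12 listed partners of the activator and repressor complexes, 7 were tested. None passed the adjusted test in limma, where 0.0451% of all genes tested did, and the median difference was 0.06. An unadjusted p under 0.05 was seen for 2 of the 7, where 15.1% of all genes tested had one. Crebbp, a coactivator with acetyltransferase activity, was at 0.31 (SE 0.10, limma adjusted p = 0.265), and Timeless, whose role in the mammalian clock is less settled than in flies, at -0.41 (SE 0.15, limma adjusted p = 0.286). Nono, a partner of PER proteins, was at 0.17 and Hdac3, the deacetylase that works with REV-ERB, at -0.14. Of 12 listed rhythmic liver outputs 11 were tested, with 0 past the adjusted test and a median difference of 0.19. Of the 11, 1 had an unadjusted p under 0.05, beside the same 15.1% of all genes tested. That one was Por, the electron donor of the cytochromes P450, at 0.44 (SE 0.14, limma adjusted p = 0.269). Alas1, which starts haem synthesis, was at 0.61, and Nampt, which makes the precursor of NAD, at -0.57. Usp2, a deubiquitinase, was at 0.25, and the groups overlapped for Alas1, Nampt and Usp2. Alas1 and Nampt had replicate 1 highest and replicate 3 lowest in both groups, and Usp2 had replicate 2 highest and replicate 3 lowest in both. Por had replicate 3 lowest in both, but replicate 2 highest in tBA livers and replicate 1 in vehicle livers. Why the orders were shared was not tested. With 1 array left out, Alas1 ran from 0.34 (without tBA replicate 1) to 0.96 (without tBA replicate 3), Nampt reached -0.37 (without vehicle replicate 1 or tBA replicate 3) and Usp2 ran from 0.08 (without vehicle replicate 3) to 0.39 (without vehicle replicate 2). Leaving out vehicle replicate 1 put Alas1 at 0.95, and leaving out vehicle replicate 3 put it at 0.40. Slide 1 alone gave 1.16 for Alas1, -0.16 for Nampt and -0.65 for Timeless.

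For the activators and repressors, but not the kinases, the genes whose levels followed a member most closely were named by Pearson's r over the 6 arrays, among 11069 genes by brightest probe, as a description. The points share the split into groups and the slides, and with 6 arrays and so many genes searched high values are found for any pattern. For Bmal1 they were Leo1 (r = 0.993), Atoh8 (0.990) and Ankrd40 (0.989). For Npas2 they were Timm10b (0.992), Esd (0.991) and Polq (0.991), and for Clock Eml1 (0.997), Nif3l1 (0.996) and Ndufaf4 (0.995). Cry1 had Galk1 (0.995), Nup205 (0.992) and Pdhb (0.986), and Cry2 had Atcay (0.993), Zfp347 (0.992) and Miip (0.985). Per1 had Lpin1 (0.995), Rhobtb2 (0.989) and Dop1b (0.983). Per2 had Stx18 (0.987), Lysmd1 (0.984) and Atp6ap1l (0.984), and Per3 had Myo5a (0.997), Nrxn2 (0.995) and Gria3 (0.993). No gene was named for more than 1 member.

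**Figure D5:**
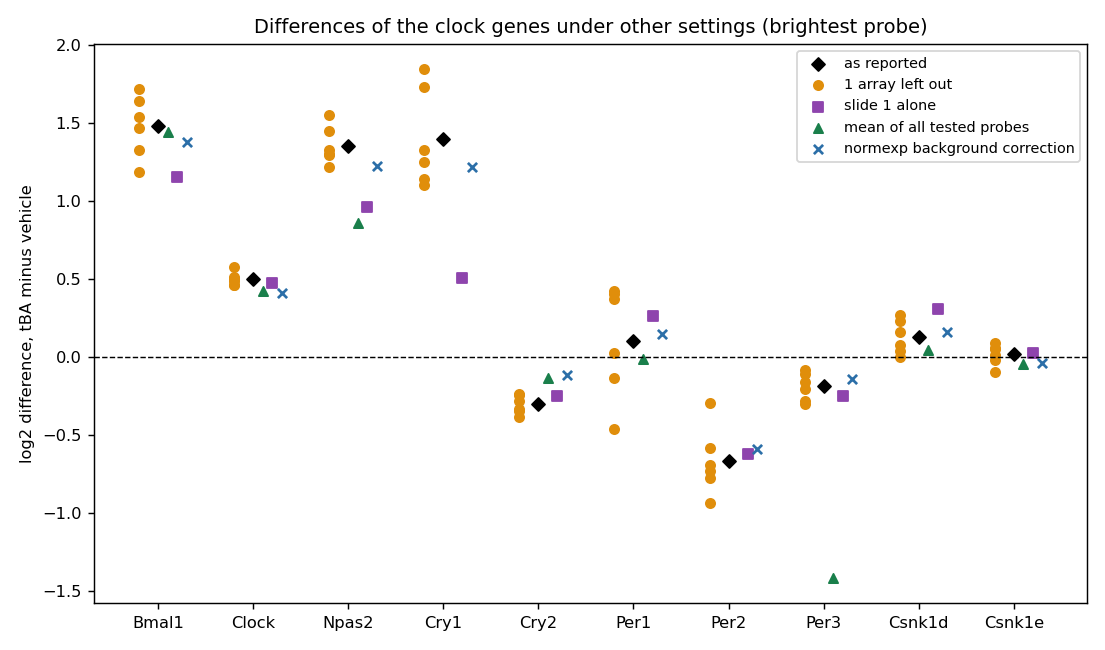
Difference in log2 level, tBA minus vehicle, of each clock gene at its brightest probe (black diamond), with 1 array left out in turn (orange), on slide 1 alone (purple), after normexp background correction (blue cross), and as the mean of all its tested probes where it has several (green). Bmal1, Clock, Npas2 and Cry1 stay above 0 and Cry2, Per2 and Per3 below 0 at every mark, Per1 and Csnk1e have marks on both sides, and the green mark of Per3, which takes its dim probes at their measured levels, lies far from its others.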

How the data were processed

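Liver RNA of 3 tBA-treated and 3 vehicle-treated rats was measured on 1-colour Agilent arrays, 1 array per animal, per the labels. Per the file headers, the authors' intensity values came from version 10.7.1.1 of Agilent Feature Extraction (10.7 in the submitters' processing notes), software that removes local background and writes a processed signal. The deposited series table holds a linear ratio: the processed signal over 1 divisor per array (570.0 to 639.5), close to that array's 75th percentile; its column medians were 0.0981, 0.0949 and 0.0952 for tBA and 0.102, 0.102 and 0.0994 for vehicle replicates 1 to 3, so it is linear, not centred per gene, and higher means more signal. The array annotation uses rn4, per the file headers.

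Here the processed signal was put on a log2 scale and the 75th percentile of each array, over 61657 probes, was subtracted, without control spots and with 3 to 16 outlier spots per array set missing. A probe entered the test if every array of 1 group or both had it well above background. Differences were fitted with limma 3.58.1 in R 4.3.3 (lmFit, eBayes), with Benjamini-Hochberg adjustment over 37647 probes. Gene values are those of the brightest tested probe. Probes were named through accessions in a RefSeq table of the GRCr8 assembly (27460 probes named). A probe not well above background on any array of a group was compared with the lowest signal well above background on each array. That signal is a reference and not a strict limit. The members, gene lists and named genes were chosen with earlier results of these data known: all 10 members, all tested genes of the stabilising loop, and up to 4 of each other list by smallest unadjusted p. The fit was tested on simulated data. Alternatives were other background corrections, normalizations, filters and slide blocks, a replicate block, and each array left out. Normexp (offset 50) used the median signal. The number of arrays limits the precision. Python 3.11.15, numpy 2.4.6, pandas 2.3.3 and matplotlib 3.10.9 were used for tables and figures.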

Additional observations from a re-analysis of the deposited data

How the results depend on the processing

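The count of 0 member probes called held under all alternatives run. Of the 23 member probes well above background on all 6 arrays, 9 had an unadjusted p under 0.05 in the limma fit. Of all 35660 such probes, 15.1% did. The count of all probes called, 43, was 18 without a filter, 0 with probes above background on all 6 arrays (5637 with an unadjusted p under 0.05), 68 with an intensity trend, 20 with slide as a fixed block, 0 on slide 1 alone (2956 unadjusted) and 6 with a replicate block. With 1 array left out it ran from 6 (tBA replicate 2 left out) to 45; leaving out tBA replicate 3 gave 14, vehicle replicate 1 gave 22 and vehicle replicate 3 gave 25. Over all tested probes, same-numbered animals did not deviate together (r of -0.056, -0.064 and 0.014), and the replicate numbers were not taken as pairs. Those values do not settle it for single genes. With a replicate block the SE went from 0.53 to 0.21 for Per1, from 0.28 to 0.10 for Nampt and from 0.41 to 0.17 for Alas1. It went the other way for Bmal1, from 0.30 to 0.35, and for Npas2, from 0.19 to 0.22.

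Bmal1, Clock, Npas2, Cry1, Cry2, Per2, Per3 and Csnk1d at their brightest probes kept their direction under every alternative, though without vehicle replicate 3 Csnk1d was at 0.0002 and Per3 at -0.0808. Of 25 member results 10 changed sign under some setting, 41 times in all, and the cause was not tested. Slide as a fixed block and slide 1 alone gave the same differences, so a sign change there is counted under both. With slide as a fixed block or slide 1 alone, Npas2 probe A_64_P024222 was at -0.0611, Cry2 probe A_43_P13175 at -0.21, Per1 probe A_64_P300243 at 0.15, Csnk1d probe A_44_P509473 at 0.19, Csnk1e probe A_64_P127944 at -0.17 and Nfil3 at -0.21. With normexp, Per1 probe A_64_P300243 was at 0.0108, Csnk1d probe A_44_P509473 at 0.0524, Csnk1e at -0.0383, and its probes A_42_P515454 at 0.0112 and A_64_P040498 at 0.14. With median centring, Csnk1d probe A_44_P509473 was at 0.0669 and Csnk1e probe A_64_P040498 at 0.0615, and with quantile normalization A_64_P040498 was at 0.0347. With the percentile over detected probes, Csnk1d probe A_64_P133899 was at -0.0074 and Csnk1e at -0.0048. As means of all tested probes, Per1 was at -0.0138 and Csnk1e at -0.0454.

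With 1 array left out in turn, ranges that crossed 0 were -0.46 to 0.42 for Per1 and -0.33 to 0.21 for its probe A_64_P300243, -0.11 to 0.29 for Cry2 probe A_43_P13175, -0.16 to 0.13 for Csnk1d probe A_44_P509473, -0.0848 to 0.13 for A_64_P133899, -0.0938 to 0.0889 for Csnk1e, -0.15 to 0.10 for A_64_P040498, -0.0284 to 0.17 for A_64_P127944 and -0.11 to 0.34 for Nfil3. Dim spots limit the Per3 probes, and 3 arrays per group limit all results.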
